A study of Mus musculus with 6 samples.

Results

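The peaks described here lie nearest to genes of 8 developmental transcription factor families, Hox, Fox, Sox, Lhx, Irx, Six-family, Pou and Nkx, in Bergmann glia (BG) of the mouse cerebellum. They were chosen by gene name alone from the authors' list of peaks of histone H3 trimethylated at lysine 9 (H3K9me3) that were present in wild-type (WT) BG and absent in Setdb1 mutant BG. Of the 34673 peaks of that list, 297 carried a member's name, at 85 gene symbols. The other 34376 peaks are the rest of the list. Mutant BG came from mGFAP-Cre, Setdb1 flox/flox mice, and mGFAP-Cre acts in all neural cells of the cerebellum except Purkinje cells, so the deletion was not restricted to BG. ChIP-seq was made from 2 mutant, 2 WT and 2 input control libraries of C57BL/6 BG at postnatal day 10, sorted by the green fluorescent protein of the Nes-GFP transgene, which the controls carried too. Nothing in the sources used here says that the libraries of a genotype came from separate animals.

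The deposited list gives 1 position, score, class and nearest transcription start site (TSS) per peak, and no value per library. Neither depth nor a spread between replicates could be had from it, so no comparison of mutant with WT BG was tested. Shares are given with 95% Wilson intervals, differences between members and the rest with 95% Newcombe intervals, and densities with exact 95% Poisson intervals. These intervals cover counting error only, and neighbouring peaks are not independent. A gene without a peak may carry H3K9me3 in both genotypes or in neither, since the list holds only peaks called in WT BG and not in mutant BG.

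Homeobox (Hox, Lhx, Irx, Six-family, Nkx, and Pou with its second DNA-binding domain), forkhead (Fox) and SOX proteins bind DNA and set cell identity in the embryo. Many of their genes lie alone or in small clusters in gene-poor stretches that hold distant enhancers. H3K9me3 is a mark of silenced chromatin, best known on transposable elements, and Setdb1 is a histone methyltransferase that deposits it on endogenous retroviruses and at selected genes.

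Windows of 4 peaks and 1 tandem unit show the kinds of sequence that the list placed beside these genes. They are the only member peak inside a Hox cluster that carries a Hox name (Hoxd4), the highest score at the gene with most peaks (Foxk1), the only one on an annotated CpG island (Sox14), the highest score inside its own gene (Sox5), and the repeating unit of the 2 highest-scored member peaks (Foxd4). Each of the 4 windows is 240 bases around the peak's centre on the plus strand of mm10, 5′ to 3′, and capitals mark CG dinucleotides.
Hoxd4, chr2:74723034-74723273: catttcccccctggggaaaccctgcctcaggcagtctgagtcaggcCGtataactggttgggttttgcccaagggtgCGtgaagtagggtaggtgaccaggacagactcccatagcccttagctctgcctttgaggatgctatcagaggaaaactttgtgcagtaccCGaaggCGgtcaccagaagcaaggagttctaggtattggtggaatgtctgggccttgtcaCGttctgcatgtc
Foxk1, chr5:142150536-142150775: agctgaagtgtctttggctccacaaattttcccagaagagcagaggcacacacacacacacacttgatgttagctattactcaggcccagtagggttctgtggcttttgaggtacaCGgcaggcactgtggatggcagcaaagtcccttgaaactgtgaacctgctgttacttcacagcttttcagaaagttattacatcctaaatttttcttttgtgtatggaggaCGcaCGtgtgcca
Sox14, chr9:99947367-99947606: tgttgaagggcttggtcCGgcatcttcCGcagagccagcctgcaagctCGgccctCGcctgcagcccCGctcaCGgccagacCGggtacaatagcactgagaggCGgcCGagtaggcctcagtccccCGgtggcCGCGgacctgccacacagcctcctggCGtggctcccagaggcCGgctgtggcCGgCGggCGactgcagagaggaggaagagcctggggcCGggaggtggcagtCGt
Sox5, chr6:144147150-144147389: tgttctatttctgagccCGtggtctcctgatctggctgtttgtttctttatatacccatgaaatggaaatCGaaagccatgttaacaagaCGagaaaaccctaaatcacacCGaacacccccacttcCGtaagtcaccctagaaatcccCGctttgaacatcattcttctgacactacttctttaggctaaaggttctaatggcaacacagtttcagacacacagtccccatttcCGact
Foxd4 unit, chr19:24912243-24912284: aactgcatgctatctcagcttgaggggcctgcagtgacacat
The Sox14 window held 19 CG dinucleotides, against 7 in the Sox5 window, 5 in the Hoxd4 window and 3 in the Foxk1 window. The Foxd4 unit of 42 bases held 0.

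The families differed widely in how many of their genes had a peak. Of 151 annotated protein-coding members, 75 were the nearest gene of at least 1 peak (49.7%, 41.8 to 57.6), beside 49.7% of all 21000 protein-coding genes. The share was thus at the background for the 8 families together, but this changed with the peaks counted. With peaks outside repeats only, members stood above other protein-coding genes, at 44.4% (36.7 to 52.3) of members and 33.1% of the others. With peaks within 10 kb of the TSS only, they stood below, at 13.2% (8.74 to 19.6) of members and 21.5% of the others. Among Pou genes 14 of 15 had a peak (93.3%, 70.2 to 98.8), among Irx genes 5 of 6 (83.3%, 43.6 to 96.99), and among Fox genes 31 of 44 (70.5%, 55.8 to 81.8). Lhx (4 of 8), Six-family (3 of 6), Sox (9 of 19) and Nkx (6 of 14) lay near the background, with intervals that held 49.7%. Hox genes stood lowest, with 3 of 39 (7.69%, 2.65 to 20.3). The interval of the Pou and Fox shares lay above the background and that of the Hox share below it.

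**Figure D1:**
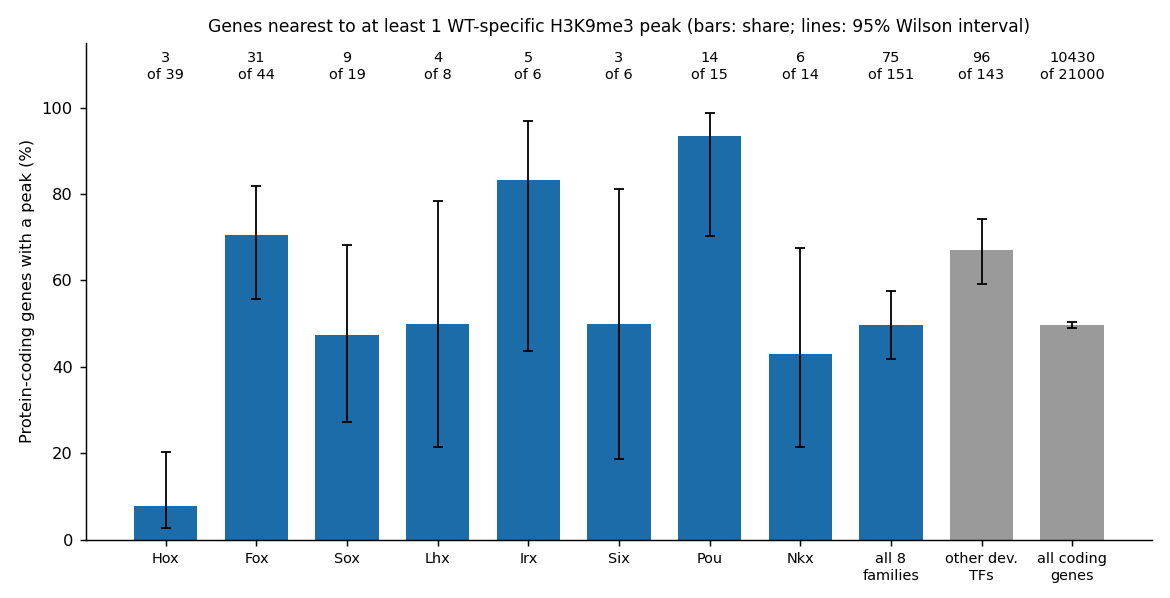
Share of annotated protein-coding genes that are the nearest gene of at least 1 WT-specific H3K9me3 peak, by family (blue), for other developmental transcription factors (TFs) and for all protein-coding genes (grey), with 95% Wilson intervals and the counts above each bar. Hox genes sit at 7.69% and Pou genes at 93.3%, while all 8 families together sit at 49.7%.

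Inside gene bodies members had peaks less often than all genes, while close to the TSS the interval of their share held that of all genes. A peak within 5 kb of the TSS was assigned to 10 of the 151 genes (6.62%, 3.64 to 11.8), beside 11.2% of all protein-coding genes. A peak centre lay inside the gene for 20 of 151 (13.2%, 8.74 to 19.6), beside 31.3%. Gene length differs widely among members and was not taken into account, so this share does not show a depletion in gene bodies. None of the 14 Nkx and none of the 6 Irx genes had a peak inside it, and none of the 8 Lhx or 6 Irx genes had one within 5 kb.

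How much sequence a gene had around it moved with these shares. The stretch of sequence nearest to a gene's TSS had a median of 43.8 kb for members and 42.3 kb for other protein-coding genes, but only 7.73 kb for Hox genes, against 197 kb for Irx genes. Among members with a stretch of up to 20 kb, 5 of 53 had a peak (9.43%, 4.097 to 20.2), beside 18.02% of other genes with such a stretch. From 20 to 50 kb, 7 of 28 members had one (25%, 12.7 to 43.4), beside 43.0% of other genes. The shares were 57.7% (38.9 to 74.5) of members and 63.9% of other genes from 50 to 100 kb, and 90.5% (71.1 to 97.3) of members and 79.4% of other genes from 100 to 200 kb. All 23 members with more than 200 kb had a peak, beside 92.7% of other genes.

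The peaks were unevenly spread over the symbols. Fox genes had 125 peaks at 32 symbols, Sox genes 52 at 12, Irx genes 32 at 5, Pou genes 30 at 17, Six-family genes 23 at 4, Nkx genes 19 at 7, Lhx genes 13 at 5 and Hox genes 3 at 3. A single peak was found at 30 symbols and 2 to 4 peaks at 38. The 17 symbols with 5 or more held 163 of the peaks (54.9%). Of the 85 symbols, 10 were non-coding or not in the annotation, among them the long non-coding RNAs Sox5os3 and Six3os1, and they held 45 peaks.

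Members' peaks lay far from the TSS. The median distance was 77.1 kb (quartiles 30.5 and 150 kb) for members and 37.2 kb (13.2 and 105 kb) for the rest of the list. Within 5 kb lay 12 of 297 member peaks (4.04%, 2.33 to 6.93), against 9.47% of the rest, a difference of -5.43 percentage points (-7.18 to -2.53). Beyond 100 kb lay 127 member peaks (42.8%, 37.3 to 48.4), against 25.9% of the rest, a difference of 16.9 points (11.3 to 22.6). Both intervals of the difference exclude 0. The promoter class of the authors' annotation, which covers the sequence just around a TSS, held 0 member peaks, which allows a share of up to 1.28%, and 279 peaks of the rest (0.812%), so no difference was detectable in this class.

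Family medians ran from 25 kb for the 3 Hox peaks and 35.2 kb for Nkx over 38.1 kb for Pou, 47.7 kb for Lhx, 74.7 kb for Six-family, 79.1 kb for Sox and 83.5 kb for Fox to 127 kb for Irx. All 32 Irx peaks and all 13 Lhx peaks lay more than 11 kb from the TSS. Upstream of the TSS lay 55.2% (49.5 to 60.8) of member peaks and 43.96% of the rest. Of the 164 upstream member peaks, 30 were at Foxk1 and 11 at Six2.

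**Figure D2:**
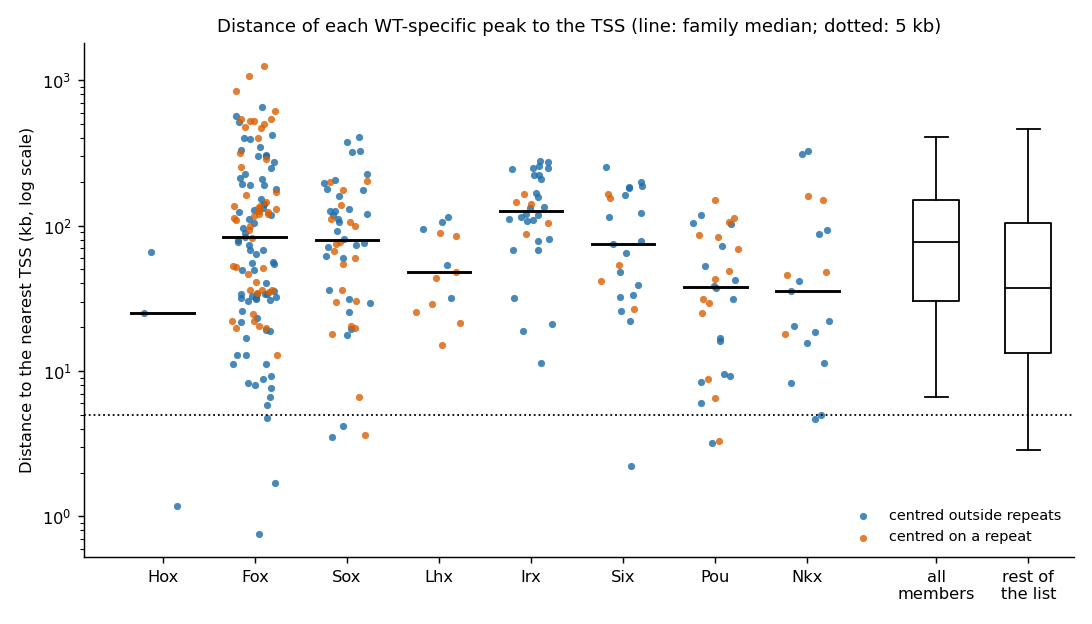
Distance of each of the 297 member peaks to its TSS in kb on a log scale, by family, with the family median as a line and peaks centred on a repeat in orange. The boxes show quartiles and the 5th to 95th percentile of all members (median 77.1 kb) and of the rest of the list (median 37.2 kb), and the dotted line marks 5 kb.

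The 12 peaks within 5 kb were each at a different symbol. Foxc2, a forkhead gene of mesoderm and lymphatic vessels, had the closest one, in its only exon, 756 bp downstream of the TSS with a score of 8.66. Its GC content was 63.3%, and its ratio of observed to expected CG was 0.904, the highest of all member peaks, against a member median of 0.222. Hoxd4 had a peak 1.18 kb downstream of its TSS with a score of 5.46, in an intron. Foxp3, the regulator of regulatory T cells, had one 1.69 kb upstream with a score of 5.78. Six4 had one at 2.23 kb, Pou2f3 at 3.19 kb, Pou2f2 at 3.29 kb, Sox15 at 3.49 kb, Sox2ot at 3.62 kb, Sox5os3 at 4.16 kb, Nkx2-5 at 4.70 kb and Foxo3 at 4.76 kb. Of these 12 scores, the highest was 9.63 (Pou2f2), and the 2 on repeats were at Pou2f2 (a B3 element) and Sox2ot (a simple repeat).

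Most member peaks lay between genes, and a part lay inside genes of another name. Of the 297, 40 were centred inside their own gene (13.5%, 10.0 to 17.8), 50 inside another protein-coding gene (16.8%, 13.01 to 21.5) and 207 between protein-coding genes (69.7%, 64.2 to 74.6). This split was not made for the rest of the list. The authors' intergenic class held 73.7% of member peaks (68.5 to 78.4) and 59.3% of the rest. The nearest-TSS rule thus gave a member's name, in part that of a non-coding RNA, to 50 peaks that lay within another protein-coding gene. The 21 such peaks at Foxk1, which encodes a forkhead repressor, all lay inside Sdk1, a gene of 974 kb for a synaptic adhesion protein. Sdk1 held 27 peaks of the list in all. A further 9 lay at Sox5os3, whose sequence overlaps the gene Sox5, and 3 peaks named Irx3 lay inside Fto. Of the 2 peaks at Foxj1, a regulator of motile cilia, both lay inside Rnf157, the stronger with a score of 13.8.

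Foxk1 had the most peaks of any member, 31, of which 30 lay upstream, between 51.5 and 572 kb from the TSS, and 1 inside the gene at 21.8 kb. Of these, 16 were on repeats. Their scores ran from 5.78 to 25.4 with a median of 6.74. The highest, 25.4, lay outside repeats 251 kb upstream, and the next, 21.5, on a B3A element 527 kb upstream. These 2 stood apart from the remaining 29, which reached 11.2.

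Irx3, a homeobox gene in a cluster with Irx5 and Irx6, had 15 peaks between 67.6 and 274 kb from its TSS, 6 upstream and 9 downstream, with scores of 5.46 to 10.6. Irx5 had 8, all downstream, between 20.9 and 156 kb and none on a repeat. With Irx6 the cluster held 27 peaks over 1084 kb, 22 of them outside repeats. The second Irx cluster held 5 peaks, 4 at Irx1 (224 to 277 kb from the TSS, scores 8.02 to 8.34) and 1 at Irx2 (18.8 kb, score 7.38), and none was on a repeat. Irx4, the third gene of that cluster, had 0.

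Six2, a regulator of kidney progenitors, had 11 peaks, all upstream, 32.4 to 201 kb from its TSS and with scores of 5.46 to 12.5. Six3os1, a non-coding RNA beside the forebrain and eye regulator Six3, had 9, 22.1 to 252 kb away, while Six3 itself had 0. The Six2-Six3 locus thus held 20 peaks over 523 kb, 16 of them outside repeats.

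Sox5, a SoxD gene active in glial and neuronal differentiation, had 9 peaks, 8 of them inside its own gene of 954 kb. Sox5os3 had 11, of which 9 lay inside Sox5 as well, so that the Sox5 gene held 17. The highest score was 15.4, 62.3 kb downstream of the Sox5 TSS and outside repeats. Sox1ot had 7 peaks and Sox2ot 5, both non-coding RNAs beside genes of neural progenitors. At Sox2ot 4 of 5 peaks were on repeats, with the highest score, 15.7, on an L1MA5A element 200.3 kb upstream. With the nearest TSS recomputed, this peak and the one with a score of 11.2 lay nearest to Gm38505, 8.4 and 5.2 kb away.

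Among forkhead genes, Foxp1, a regulator of neuronal differentiation, had 10 peaks, 7 inside the gene, with scores of 5.78 to 7.70. Foxl1 had 8 downstream, 9.18 to 194 kb from the TSS and none on a repeat, and Foxd3, a neural crest regulator, had 6 upstream with a highest score of 13.8. No repeat carried any of the 9 peaks of the Foxf1-Foxc2-Foxl1 cluster or the 7 of the Foxq1-Foxf2-Foxc1 cluster.

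The leading genes of the smaller families were Nkx6-1 (7 peaks, 20.5 to 328 kb away, scores 5.78 to 11.2), a regulator of motor neurons and beta cells, and Lhx4 (6 peaks, 5 on repeats, 15.2 to 47.7 kb away), a regulator of pituitary development. In the Pou family it was Pou5f1-rs4, a transcribed pseudogene (6 peaks, 6.56 to 38.6 kb away). With the nearest TSS recomputed, the Nkx6-1 peaks at 310 kb (score 11.2) and 328 kb lay nearest to Gm3032.

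**Figure D3:**
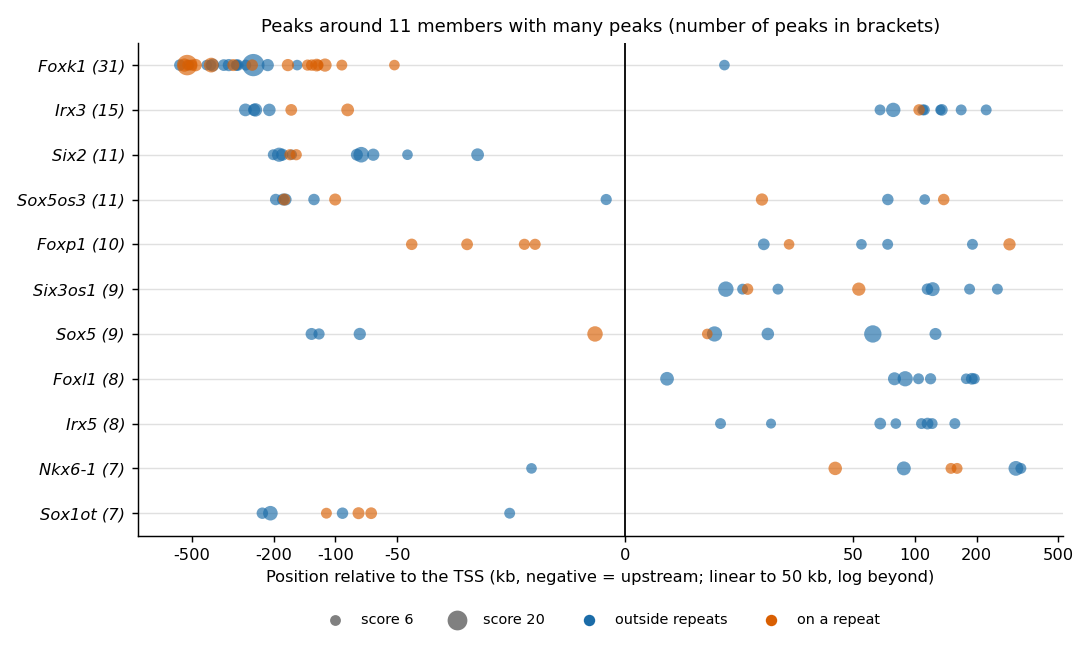
Position of each peak relative to the TSS (kb, negative is upstream) at 11 members with many peaks, with the point area proportional to the authors' score and peaks on repeats in orange. The 31 Foxk1 peaks lie almost all upstream, the Six2 peaks lie only upstream and the Foxl1 and Irx5 peaks only downstream.

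A smaller share of the members' peaks than of the rest lay on repeats. Of the 297, 106 were centred on an annotated repeat (35.7%, 30.5 to 41.3), against 54.2% of the rest, a difference of -18.5 points (-23.8 to -12.9). Long terminal repeat (LTR) elements made up most of the difference, with 11.8% of member peaks against 26.7% of the rest (-14.9, -18.1 to -10.7). Among these, ERVK elements, the class that holds the IAP retroviruses, carried 13 member peaks (4.38%), against 13.1% of the rest (-8.70, -10.5 to -5.71), and ERV1 elements 1 (0.337%), against 3.01%. L1 elements carried 10.1% of member peaks and 16.3% of the rest (-6.25, -9.21 to -2.28). For SINE elements the difference of 1.05 points (-1.73 to 4.88) held 0, with 9.09% of member peaks and 8.04% of the rest.

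The gap was widest far from the assigned TSS. Beyond 100 kb, 37.0% of member peaks were on repeats (29.1 to 45.7), against 70.2% of the rest (-33.2, -41.1 to -24.5). In introns the shares were 41.2% of member peaks and 44.5% of the rest, and the difference of -3.36 points (-14.3 to 8.53) held 0. The reference sequence differed in the same direction, since 26.4% of the members' stretches was soft-masked as repetitive and 36.5% of all other stretches. Beyond 100 kb these shares were 26.8% for members and 42.4% for the rest. With the nearest TSS recomputed, members had 13.9 peaks per Mb of soft-masked sequence (10.7 to 17.8), against 14.3 for the rest. On sequence that was not soft-masked they had 16.3 per Mb (14.1 to 18.7), against 12.3 for the rest. How much of the gap goes with the sequence available was not tested.

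Families differed here too. Repeats carried 5 of 32 Irx peaks (15.6%), 5 of 23 Six-family peaks (21.7%), 5 of 19 Nkx peaks (26.3%), 20 of 52 Sox peaks (38.5%), 49 of 125 Fox peaks (39.2%), 14 of 30 Pou peaks (46.7%) and 8 of 13 Lhx peaks (61.5%). None of the 32 Irx peaks was on a LINE or SINE element. Of the 27 SINE peaks, 19 were at Fox genes, of which 10 were at Foxk1 alone and 9 at all other Fox genes.

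Set against the sequence that could be assigned to a gene, members had more peaks per Mb than the rest of the annotation, with fewer up to 20 kb from the TSS and more only beyond 100 kb. With the nearest TSS recomputed, 268 peaks fell in the 17.1 Mb nearest to members' TSSs, 15.6 per Mb (13.8 to 17.6), against 13.1 per Mb (12.9 to 13.2) for the rest. Within 5 kb the density was 7.94 per Mb (4.101 to 13.9) for members and 14.2 (13.7 to 14.6) for the rest. From 5 to 20 kb it was 12.4 per Mb (8.67 to 17.1) for members and 17.7 (17.4 to 18.1) for the rest. From 20 to 100 kb the values were close, 15.5 per Mb (12.7 to 18.6) for members and 14.96 for the rest. Beyond 100 kb it was 19.8 per Mb (16.2 to 23.9) for members and 8.57 (8.39 to 8.76) for the rest. Other developmental transcription factor genes (Pax, Dlx, Gata, Tbx, Zic, Nfi and the like) had 7.18 per Mb within 5 kb and 7.66 (6.11 to 9.48) beyond 100 kb, below the members' interval. The highest density was that of the Six-family genes, 29.4 per Mb (18.2 to 44.9). The lowest was that of the Hox genes, 5.39 per Mb (1.11 to 15.7) on 3 peaks, an interval that holds the value of the rest.

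With all peaks counted, the members' excess over all distances rested on 3 loci. Without Foxk1 the density was 14.3 per Mb (12.6 to 16.3), and without Foxk1 and the Irx3-Irx5-Irx6 and Six2-Six3 loci it was 12.6 (10.9 to 14.6), against 13.1 for the rest. Beyond 100 kb it was 16.04 per Mb (12.7 to 19.96) without Foxk1 and 11.98 (8.92 to 15.7) without all 3 loci, still above the 8.57 of the rest. On sequence that was not soft-masked, the density without all 3 loci was 12.6 per Mb (10.6 to 14.9), against 12.3 for the rest. Peaks outside repeats, per Mb of all sequence, stayed more frequent at members without all 3 loci, at 8.16 (6.78 to 9.73), against 5.98 for the rest. These exclusions were chosen after the values had been seen.

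**Figure D4:**
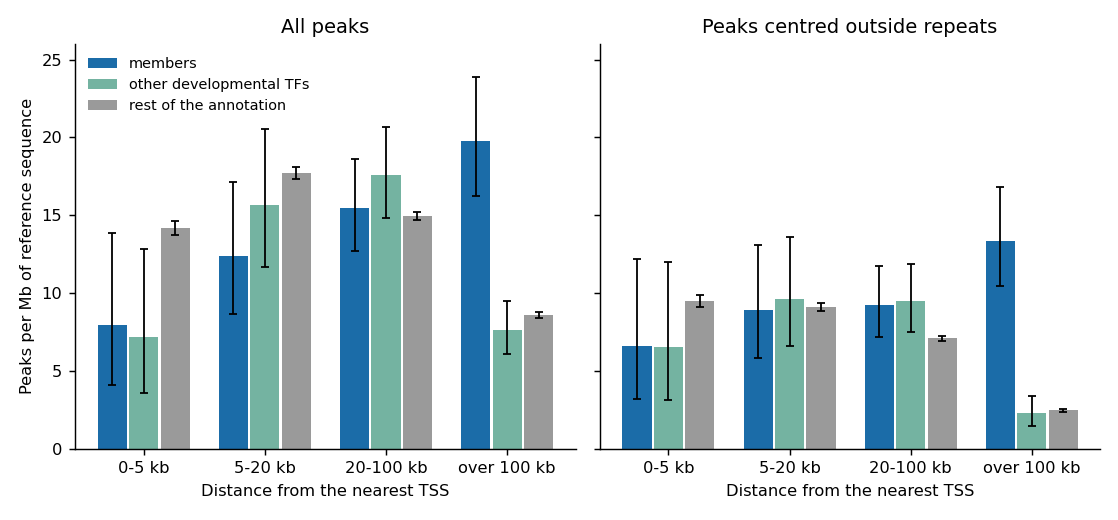
Peaks per Mb of reference sequence by distance from the nearest TSS for members, other developmental transcription factors (TFs) and the rest of the annotation, for all peaks (left) and for peaks centred outside repeats (right), with 95% Poisson intervals. Members lie below the rest within 5 kb (7.94 against 14.2 for all peaks) and above it beyond 100 kb (19.8 against 8.57).

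GC content moved with the density beyond 100 kb. That sequence had 42.8% GC for members and 39.3% for the rest. In sequence of more than 44% GC, members had 69 peaks in 1.56 Mb, 44.3 per Mb (34.4 to 56.0), against 24.3 (23.2 to 25.5) for the rest. From 42 to 44% GC the values were 14.2 per Mb (8.79 to 21.7) for members and 13.4 for the rest, and from 40 to 42% GC 9.73 (5.32 to 16.3) for members and 9.48 for the rest. Members and the rest thus differed beyond their intervals only in the class over 44% GC, which 10 stretches of members made up. Without Foxk1 that class held 38 per Mb (27.3 to 51.5), and without all 3 loci 34.4 (17.8 to 60.1), an interval that holds the value of the rest. The part of GC content in the difference was not tested further.

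**Figure D5:**
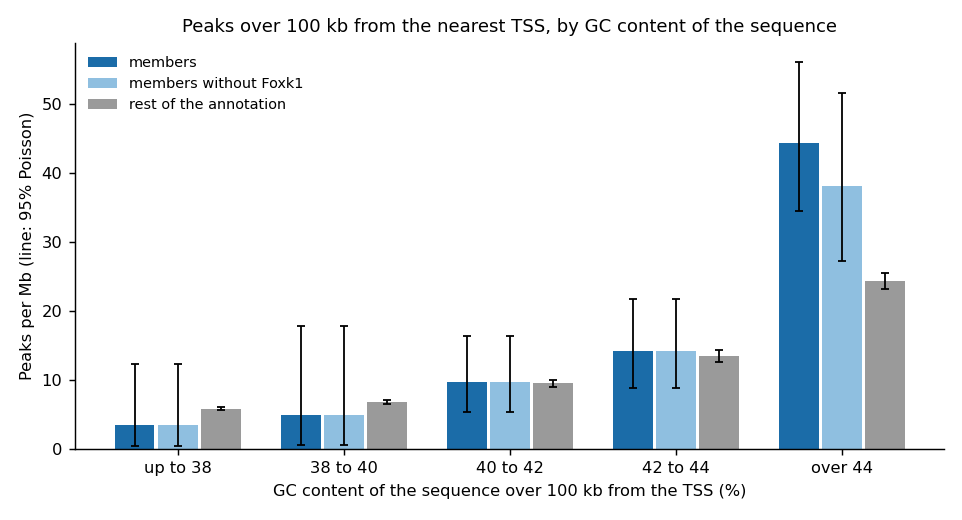
Peaks per Mb in sequence over 100 kb from the nearest TSS, by the GC content of that sequence, for members, members without Foxk1 and the rest of the annotation, with 95% Poisson intervals. The density climbs with GC content in each set, and members stand above the rest over 44% GC (44.3 against 24.3 per Mb).

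The 4 Hox clusters, whose genes set position along the body axis, held few peaks by coordinates as well. Their 0.492 Mb held 3 peaks, 6.10 per Mb (1.26 to 17.8), against 18.8 per Mb (10.5 to 30.9) in the 100 kb to either side and 12.7 per Mb over the genome. The interval of the clusters holds the value of the genome and ends below that of the flanks, whose own interval overlaps it. The Hoxa and Hoxc clusters held 0. Of the 3, 1 was the Hoxd4 peak and 2 lay on SINE elements in the Hoxb cluster and carried the names of other transcripts. The flanks held 15 peaks, among them the other 2 with a Hox name, Hoxb1 (25 kb, score 8.34) and Hoxc13 (65.6 kb, score 5.46), and the strongest, with a score of 18.6, was named for the homeobox gene Evx2.

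Score and width of the members' peaks were close to those of the rest. The median score was 7.06 for members and 7.06 for the rest, with 8.75% of member peaks (6.04 to 12.5) and 10.3% of the rest in the top 10% of scores. Of member peaks 21.2% were wider than 500 bp, against 22.9% of the rest, and 34.7% of member peaks had another peak within 10 kb, against 33.3% of the rest. The intervals of all 3 differences held 0. The authors' sources used here do not say on which scale the score lies.

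The 2 highest scores belonged to Foxd4, 56.8 (chr19:24912237-24916041) and 36.6 (chr19:24916822-24919385), 12.8 and 16.8 kb upstream of its TSS. Both peaks consisted of tandem copies of the 42-base unit shown above, with 62 exact copies in the stronger and 38 in the other, and neither was annotated as a repeat. The stronger held 0 CG dinucleotides. Reads that matched several copies were placed once by the authors, and the part of this in the 2 scores was not tested. The next highest were 28.9 on an IAP-d-int element and 21.8 on a CpG island at Sox14, a SOX gene of interneurons, 30.5 and 71.3 kb upstream, and 25.4 and 21.5 at Foxk1. They were followed by 15.7 at Sox2ot, 15.4 at Sox5, 14.8 at Nkx1-1 (92.8 kb, outside repeats) and 13.8 at Foxd3.

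Tandem sequence was more frequent among members, with 10 of 297 peaks (3.37%, 1.84 to 6.09) matching themselves over at least 60% of bases at a shift of 10 to 200 bases, against 0.842% of the rest. Beside the 2 at Foxd4, these lay at Foxk1, Foxi3, Six2, Six3os1, Nkx6-1, Sox5 (1 each) and Sox5os3 (2). This measure was added after the values at Foxd4 had been seen.

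Base composition differed little, with a median GC content of 49.9% in member peaks and 49.1% in the rest. The median ratio of observed to expected CG was 0.222 in member peaks and 0.205 in the rest. The nuclear factor I (NFI) half-site TTGGCA, on either strand, was in 29.0% of member peaks (24.1 to 34.4) and 29.1% of the rest. The full NFI palindrome was in 1 member peak, 22.1 kb upstream of the Foxp1 TSS, and in 12 of 34303 peaks of the rest. A match describes the sequence and does not show binding.

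Members known from BG or other cerebellar cells ranged from 0 to 15 peaks. Irx3 (15), Foxp1 (10), Sox5 (9), Irx5 (8) and Irx1 (4), described above, were on this list. The nearest-TSS rule gave some peaks beside other listed genes to non-coding RNAs, with 7 at Sox1ot, 5 at Sox2ot and 2 at Lhx1os. Of the SOX genes of neural progenitors and glia, Sox2, Sox3, Sox8, Sox9 and Sox10 had 0. Sox1 had 1 (74.2 kb, score 6.10) and Sox4 1 (29.4 kb, score 8.02). Sox6 had 3, all more than 328 kb from its TSS, and Sox11 had 3, at least 106 kb away. Of the LIM homeobox genes Lhx1 and Lhx9 had 0, Lhx2 had 1 (43.5 kb) and Lhx5, which acts with Lhx1 in Purkinje cells, had 3 (53.99 to 114.9 kb). Pou3f3 had 0, while Pou3f1 (42.3 kb), Pou3f2 (8.43 kb) and Pou3f4 (86.3 kb) had 1 each. Among forkhead genes, Foxp2, a Purkinje cell gene, had 3 inside the gene with a highest score of 10.6, Foxp4 had 3 with a highest score of 11.6, Foxc1, a gene of the cerebellar meninges, had 3 (31.8 to 67.9 kb) and Foxo1 had 1 at 77.4 kb, inside the gene.

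Other developmental transcription factor genes gave a partly different picture. A peak was assigned to 96 of 143 of them (67.1%, 59.1 to 74.3) and, within 5 kb of the TSS, to 8 of 143 (5.59%, 2.86 to 10.6). Members (49.7% with a peak and 6.62% within 5 kb) were thus lower in the first share and near it in the second. The median distance was 77.1 kb for member peaks and 57.7 kb for the 321 peaks of the other transcription factors. Repeats carried 35.7% of member peaks (30.5 to 41.3) and 49.5% of those of the other transcription factors.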

How the data were processed

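H3K9me3 ChIP-seq was made from BG of mutant, WT and input control libraries, 2 each. The control libraries are named input in their titles and IgG as antibody, and the sources used here differ on the H3K9me3 antibody. The authors aligned reads to mm10 with Bowtie2 and called peaks with HOMER (versions 2.2.8 and 4.10.1, per the submitters' processing notes), keeping 1 best location per read and 1 tag per position, and deposited 1 list of WT-specific peaks. The deposited peak score has no stated scale, and what the peaks were called against is unclear. Depth is unknown.

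Peaks were chosen by symbol (Hoxa to Hoxd, Foxa to Foxs, Sox, Lhx, Irx, Six-family, Pou1f to Pou6f or Nkx, followed by a digit). Members and lists were chosen with earlier results of these data known. Distances, classes and repeats are the authors'. Stretches nearest to a TSS, gene bodies and sequences came from RefSeq's GRCm38.p6 (mm10) genome and gene models. The nearest gene recomputed from it was the same for 267 of 297 peaks (89.9%). Python 3.11.15, pandas 2.3.3 and scipy 1.17.1 were used, and the steps were checked on simulated data. No test was run, since the list has no replicates.

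Genes were named by a rule: the 15 members with most peaks, those with a peak within 1 kb of the TSS or with 1 of the 10 highest scores, the first of each family, and a list from BG and cerebellum. Others (such as Hoxd4, Foxj1, Sdk1 and those within 5 kb of a TSS) were named after their values were seen. One member peak on chromosome 18 is counted but its sequence is not printed. Some items that the rule names are not reported here.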

Additional observations from a re-analysis of the deposited data

How the results depend on the processing

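No paired analysis was possible because the list merges the libraries and gives no value per library, and no replicate could be left out for the same reason. The direction of members against the rest held under every alternative tried for the share near a TSS, the share on repeats and the median distance, and over all results 19 of 28 values stayed inside the interval of the value reported. The share of protein-coding genes with a peak was 13.2% for members and 21.5% for other genes with peaks within 10 kb only, 35.8% for members and 34.8% for other genes with scores at or above the median, and 44.4% for members and 33.1% for other genes with peaks outside repeats only, so that the equal shares became lower for members in the first setting and higher in the last. The share near a TSS was 0.337% for members and 1.76% for the rest within 1 kb, 1.01% for members and 3.40% for the rest within 2 kb, and 9.09% for members and 19.5% for the rest within 10 kb. Density was 7.998 per Mb for members and 6.74 for the rest with scores at or above the median, and 10.3 for members and 5.98 for the rest outside repeats. Among alternatives chosen after seeing the data, the density of all peaks without the 3 loci with most peaks was 12.6 for members. It was 13.1 for the rest, so that the order turned. The share of peaks centred on a soft-masked base was 26.3% for members and 39.96% for the rest. The list carries no depth, so an absent mark and one too faint to be called cannot be told apart.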
